A study of Mus musculus with 16 samples.

Results

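The colon of mice carrying only a TadA mutant of Bifidobacterium UCC2003 was compared with the colon of mice carrying only the UCC2003 parent strain, with 4 arrays per group and 8 of the 16 arrays of the series. The arrays were chosen by the treatment label of each sample alone. All mice were germ-free Swiss Webster animals, an outbred stock, and were given the mutant, given the parent strain, left germ-free (GF) or re-conventionalised, that is given a conventional microbiota (CONV). The labels give no age, cage, litter or housing unit. An effect of strain therefore cannot be told apart from an effect of shared housing or of inherited differences between these outbred mice. The labels do not say what kind of mutation TadA carries or whether the mutant is 1 clone. The series title concerns a protein of the tight adherence pilus and growth of the colonic epithelium. Colon RNA was hybridised to Affymetrix exon arrays covering the mouse transcriptome. The GF and CONV values below are given as context.

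Bifidobacterium species are anaerobic gut bacteria common in early life, and UCC2003 is a strain of Bifidobacterium breve used to study how they colonise a host. The tight adherence locus encodes a surface pilus, and TadA is its motor ATPase. A gut bacterium can act on the colon through its surface structures and its products. The epithelium is renewed from dividing crypt cells that give rise to absorptive colonocytes, mucus-secreting goblet cells and hormone-secreting enteroendocrine cells. TadA is a bacterial gene, so a mouse array holds no measurement of it and the mutation could not be checked in these data.

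Values were log2 intensities in 2 deposited tables made from the same RNA, which are therefore no independent checks of each other. The first covered 23332 transcript clusters, each a set of probes summed up as 1 transcript, and 1973 of them had exactly 1 gene symbol. The second gave 1793 genes that the authors had selected for differing among TadA mutant, UCC2003 and GF. Since that selection used these same arrays, its counts are not independent evidence of a difference between TadA mutant and UCC2003. The same holds for every count of list members taken from that table below. Differences are TadA mutant minus UCC2003, so a positive one means higher in TadA mutant. A feature was called where the p-value of limma, adjusted by Benjamini-Hochberg, was under 0.05.

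Tissue composition varied within both groups. Cpa1, a pancreatic carboxypeptidase, read 4.73, 13.11, 5.01 and 7.49 log2 units in TadA mutant replicates 1 to 4, against 13.22, 5.03, 13.29 and 4.39 in UCC2003 replicates 1 to 4. Cel, a pancreatic lipase, was high in the same arrays, so pancreatic transcripts were abundant in 1 TadA mutant array and 2 UCC2003 arrays. The mean of the 9 measured pancreas acinar genes ran from 6.62 to 11.54 over the TadA mutant arrays and from 6.70 to 11.86 over the UCC2003 arrays, and the groups overlapped. The mean of the 4 measured smooth muscle clusters ran from 8.36 to 8.89 in TadA mutant and from 8.55 to 8.73 in UCC2003. Array medians ran from 5.91 to 6.03 over the 16 arrays, and 0 pairs of arrays were identical. Colon epithelium was well represented: Tff3, a goblet cell trefoil peptide, read 12.48, 12.53, 12.49 and 12.57 in TadA mutant, against 12.51, 12.70, 12.53 and 12.61 in UCC2003.

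Across the whole array, few features separated the 2 strains. Of the 23332 clusters, 2 were called (0.00857%), B4galnt2 higher and the unnamed cluster 6841363 lower in TadA mutant. The next cluster had an adjusted p of 0.184 by limma. Unadjusted p-values under 0.05 were found for 835 clusters, of which 376 were higher (1.61%) and 459 lower (1.97%). The difference was above 0 in 45.6% of clusters and below 0 in 54.4%, with a median of -0.014. All 4 TadA mutant arrays lay above all UCC2003 arrays in 1.15% of clusters and below them in 1.6%. Among the clusters with 1 symbol these shares were 2.28% and 2.33% at an unadjusted p under 0.05, 44.8% and 55.2% by direction, and 1.52% and 1.98% without overlap; 0.0507% of them were called. In the gene-level table, 2 of 1793 genes were called (0.112%), B4galnt2 higher and Retnlb lower. The p-values were adjusted over 35860 tests, a number assumed by taking 0.05 as the share of genes that passed the authors' selection. It is larger than the 23332 clusters, and the count depends on it. The next gene had an adjusted p of 0.0579 by limma, and 345 genes were called when adjusted over the 1793 alone. In that table, 718 genes had an unadjusted p under 0.05, 425 higher (23.7%) and 293 lower (16.3%). The difference was above 0 in 55.7% and below 0 in 44.3% of these genes, with a median of 0.051, and the groups did not overlap in 13.6% (higher) and 10.7% (lower). In the authors' deposited table, 0 of 16135 features had an adjusted p under 0.05 for this pair of groups, and 618 had an unadjusted p under 0.05, 217 higher and 401 lower in TadA mutant. The authors' shorter lists held 258 features at a fold over 1.3 and p under 0.05, and 20 at a fold over 1.5 and p under 0.005.

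**Figure D1:**
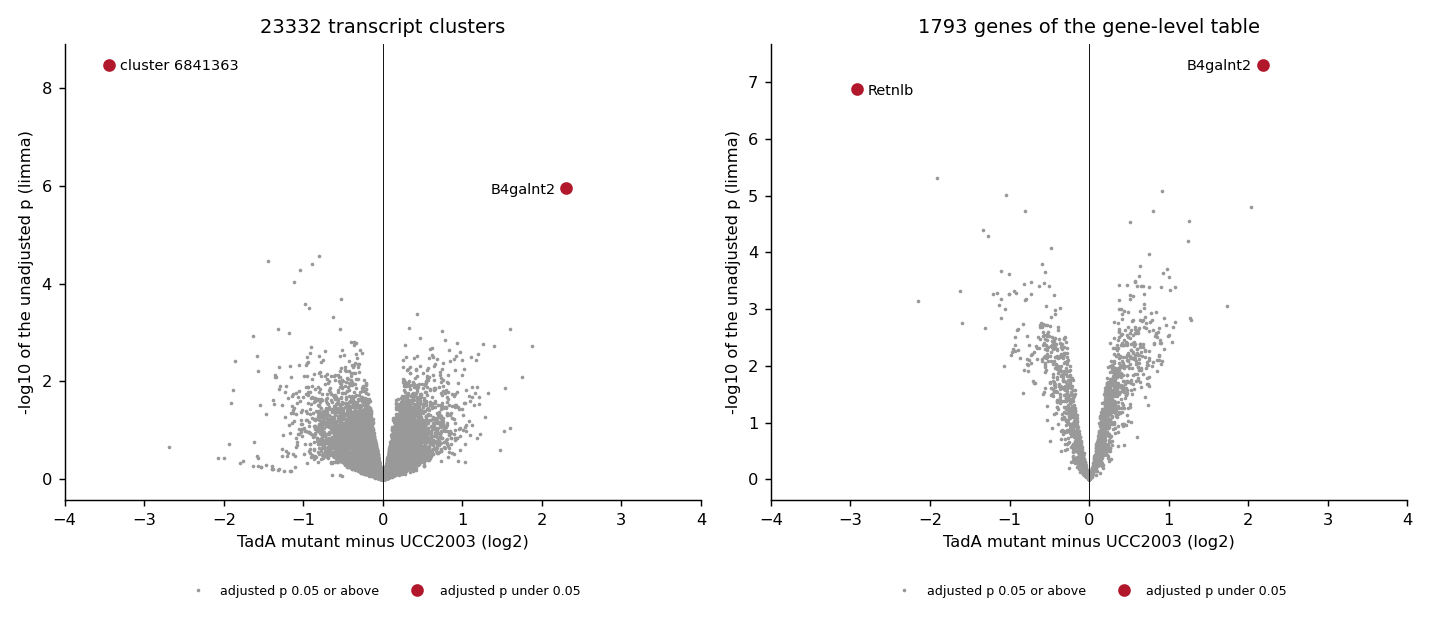
Difference between TadA mutant and UCC2003 (x axis, log2) against -log10 of the unadjusted limma p (y axis), for the transcript clusters at left and the gene-level table at right; each point is 1 feature and red points have an adjusted p under 0.05. B4galnt2 stands apart at right in both panels, and cluster 6841363 and Retnlb at left.

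Retnlb, on chromosome 16, encodes a resistin-like protein that goblet cells secrete into mucus and that acts on bacteria at the epithelial surface. Its gene-level values were 7.17, 7.90, 8.30 and 7.40 log2 units in the TadA mutant columns, against 10.60, 10.16, 10.63 and 11.05 in the UCC2003 columns. The highest TadA mutant value lay 1.86 log2 units below the lowest UCC2003 value. Retnlb fell by 2.91 ± 0.28 log2 units (SE, 7.54-fold lower, 95% interval -3.52 to -2.31) in TadA mutant, with an adjusted p of 0.00241 by limma. Group means were 7.69 ± 0.51 in TadA mutant, 10.61 ± 0.36 in UCC2003, 6.91 ± 0.50 in GF and 11.27 ± 0.22 in CONV (SD, n = 4 each). The call was kept without any single column of the 3 groups fitted and ended in an ordinary fit without moderation (adjusted p = 0.144). RNA of the whole colon cannot tell fewer goblet cells from less Retnlb RNA per cell.

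Other goblet cell genes showed no difference of that size. Tff3 differed by -0.07, Zg16, a lectin of the mucus layer, by -0.06, and Creb3l1, a secretory cell transcription factor, by -0.02 log2 units among the clusters, none of them called. Agr2, a disulfide isomerase needed for mucin folding, differed by 0.09 in the gene-level table. The mean of the 3 goblet cell clusters ran from 11.52 to 11.71 in TadA mutant and from 11.62 to 11.73 in UCC2003, so the groups overlapped.

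Cluster 6841363 carries no gene name in the files. It read 7.89, 8.65, 8.93 and 7.86 log2 units in TadA mutant replicates 1 to 4, against 11.81, 11.37, 11.75 and 12.17 in UCC2003 replicates 1 to 4. All TadA mutant arrays lay below all UCC2003 arrays, by at least 2.44 log2 units. The cluster fell by 3.44 ± 0.27 log2 units (SE, 10.9-fold lower) in TadA mutant, with an adjusted p of 7.97e-05 by limma. The authors' deposited table gave a signed fold of -10.5, with p = 4.81e-06 before and 0.0776 after adjustment. Its group means were 8.33 ± 0.54 in TadA mutant, 11.77 ± 0.33 in UCC2003, 7.45 ± 0.50 in GF and 12.16 ± 0.11 in CONV (SD, n = 4 each). Without any single array of the series the cluster was still called, and the difference then ran from -3.64 to -3.28. The call ended without the arrays with abundant pancreatic transcripts, a fit on fewer arrays, at a difference of -3.54 (adjusted p = 0.386 by limma). With the Cpa1 and Cel level in the fit of all arrays the cluster was still called, at -3.44 (adjusted p = 0.000325 by limma).

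B4galnt2 lies on chromosome 11 and makes a sugar-transferring enzyme that caps glycans of the intestinal surface, which bacteria can bind or feed on. Its cluster read 7.67, 7.14, 7.40 and 7.61 log2 units in TadA mutant replicates 1 to 4, against 5.42, 5.45, 4.75 and 4.97 in UCC2003 replicates 1 to 4. Every TadA mutant array lay above every UCC2003 array, with a gap of 1.69. B4galnt2 rose by 2.31 ± 0.29 log2 units (SE, 4.95-fold, 95% interval 1.69 to 2.92) in TadA mutant, with an adjusted p of 0.0132 by limma. Group means were 7.46 ± 0.24 in TadA mutant, 5.15 ± 0.35 in UCC2003, 7.37 ± 0.20 in GF and 8.91 ± 0.73 in CONV (SD, n = 4 each). In the gene-level table the difference was 2.18 ± 0.19 (SE, 4.54-fold, adjusted p = 0.00178). The authors' deposited table gave a fold of 4.81, with p = 1.75e-05 before and 0.142 after adjustment. The call on clusters ended without UCC2003 replicate 3 (adjusted p = 0.0560) or 4 (0.0597) and without TadA mutant replicate 1 (0.0903), 3 (0.0668) or 4 (0.0770), with differences from 2.18 to 2.32. A fit with no moderation of the variances (adjusted p = 0.0816) ended it too. So did the fit without the arrays with abundant pancreatic transcripts, where 3 TadA mutant and 2 UCC2003 arrays remained and the difference was 2.35 (adjusted p = 0.634). With the Cpa1 and Cel level in the fit of all arrays B4galnt2 was still called, at 2.27 (adjusted p = 0.0299 by limma).

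Of the 7 glycosyltransferase clusters measured, B4galnt2 alone was called, against 0.0507% of clusters with 1 symbol. The list was divided in direction, with 4 clusters higher and 3 lower in TadA mutant and a median of 0.09, against 44.8% higher among clusters with 1 symbol. St6galnac1 and Chst5 differed by 0.27 and 0.32. Gcnt3, a mucin branching enzyme, read 8.60 to 9.06 in TadA mutant and 8.99 to 9.48 in UCC2003, a difference of -0.32 ± 0.13 (SE, unadjusted p = 0.0338, adjusted p = 1.0 by limma). St6gal1, a sialyltransferase, differed by -0.26 in the gene-level table.

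**Figure D2:**
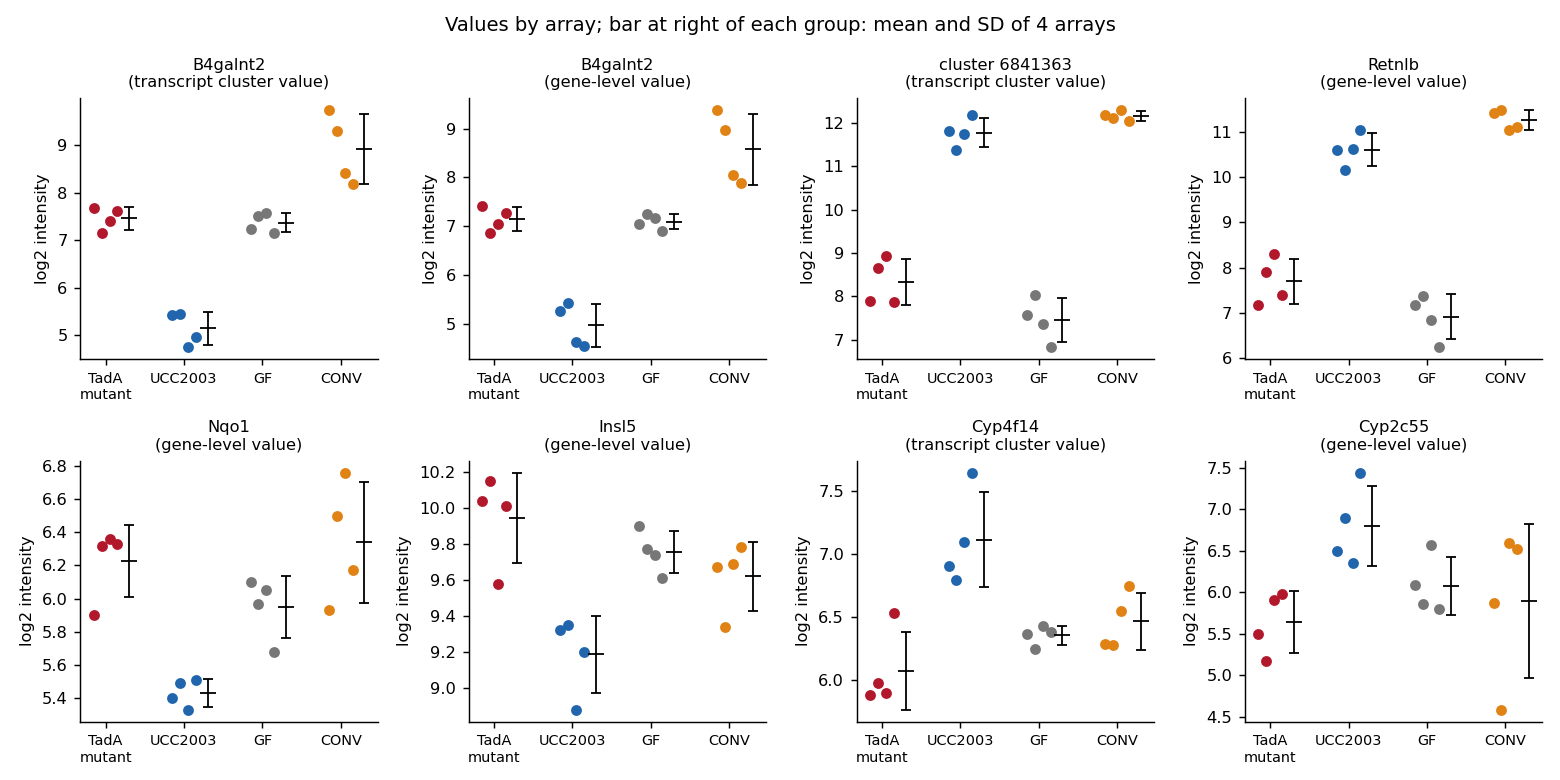
Log2 intensity of 7 features by group (TadA mutant, UCC2003, GF, CONV); each point is 1 array and the bar at its right is the mean and SD of 4 arrays, and B4galnt2 is shown from both tables. B4galnt2 is lowest in UCC2003, Retnlb and cluster 6841363 are low in TadA mutant and GF, and the lower row shows genes that did not pass the adjusted threshold.

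Cell division genes carried the question in the series title, and 21 spindle and kinetochore genes were in the gene-level table. All 21 had higher means in TadA mutant than in UCC2003, against 55.7% of all 1793 genes of the table, and none was called. An unadjusted p under 0.05 was found for 19 of them, against 23.7% of the table in that direction. The median difference was 0.47 log2 units, with a range of 0.21 to 0.65, against a median of 0.051 for the table. In 8 of 21 genes all TadA mutant columns lay above all UCC2003 columns, against 13.6% of the table. The other 32 genes of the list of 53 were not in that table. The table holds only genes selected for differing among TadA mutant, UCC2003 and GF on these arrays. The list's mean was 6.48 in TadA mutant, 6.04 in UCC2003 and 6.06 in GF. The counts above were therefore partly fixed by that selection. These genes tend to be read together in dividing cells, so the 21 are no separate observations.

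Cenpf, a kinetochore protein, read 7.22, 6.91, 7.13 and 7.12 log2 units in TadA mutant, against 6.41, 6.53, 6.37 and 6.76 in UCC2003. The difference was 0.58 ± 0.12 (SE, unadjusted p = 0.000327, adjusted p = 0.379 by limma), the smallest p of the list. Ect2, an exchange factor needed for cytokinesis, read 7.20, 6.96, 7.53 and 7.22 in TadA mutant, against 6.61, 6.80, 6.16 and 6.79 in UCC2003. Ube2c, the ubiquitin-conjugating enzyme of the anaphase promoting complex, read 8.63, 8.71, 8.78 and 8.71 in TadA mutant, against 8.23, 8.14, 8.23 and 8.35 in UCC2003. In these 3 genes the groups did not overlap. Ckap2, a microtubule-associated protein of the spindle, differed by 0.53, Cdca2, a mitotic phosphatase regulator, by 0.51, and Kif20a, a mitotic kinesin, by 0.41. Top2a, the topoisomerase of dividing cells, had the largest difference of the list, at 0.65. Among the clusters, Ube2c and Birc5, an inhibitor of apoptosis active in mitosis, were the measured members, at 0.45 and 0.40.

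Of the 58 genes of the cyclin and replication list, 4 were in the gene-level table. All 4 had higher means in TadA mutant, against 55.7% of the table. They too had been selected for differing among TadA mutant, UCC2003 and GF, so this count was partly fixed by that selection. Ccna2, a cyclin of S phase and mitosis, differed by 0.57, Ccnb2, a mitotic cyclin, by 0.53, Ccnd1, a cyclin of the start of the cycle, by 0.30, and Blm, a DNA helicase, by 0.29. Among the clusters Chek1, a checkpoint kinase, read 5.60 to 5.65 in TadA mutant and 4.72 to 5.48 in UCC2003, a difference of 0.40 ± 0.13 (SE, unadjusted p = 0.00865, adjusted p = 1.0 by limma) that was 0.23 without UCC2003 replicate 3. Mcm4, Gins2 and Ccne2 differed by 0.18, 0.07 and 0.05. None of these genes was called.

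The mean level over the 21 spindle and kinetochore genes was 6.48 in TadA mutant (6.28 to 6.69 over the columns), 6.04 in UCC2003 (5.91 to 6.32), 6.06 in GF (5.77 to 6.29) and 6.67 in CONV (6.42 to 6.94). The highest UCC2003 column lay above the lowest TadA mutant column, so the ranges overlapped at this level. Crypt stem cell and growth factor genes did not share the direction: Igf2, an insulin-like growth factor, differed by -0.45 ± 0.12 (SE), Ascl2, a stem cell transcription factor, by -0.17 and Rspo3, a Wnt signal amplifier, by -0.08, none of them called. Igf2 read 5.64, 5.63, 5.40 and 5.60 in TadA mutant, against 6.01, 5.85, 6.16 and 6.02 in UCC2003.

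**Figure D3:**
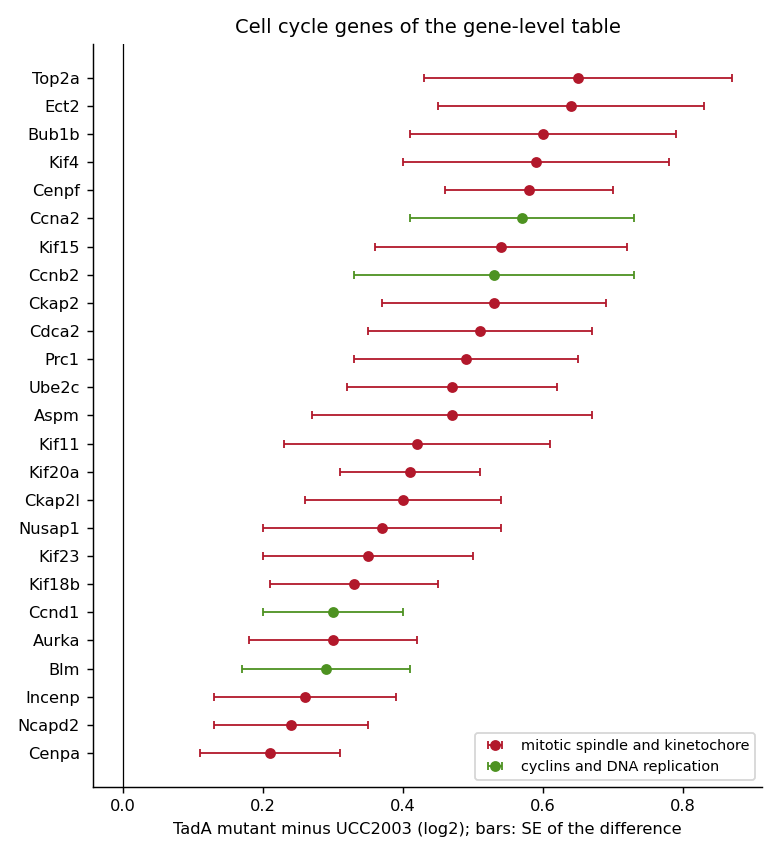
Difference between TadA mutant and UCC2003 (x axis, log2) of the 21 spindle and kinetochore genes and 4 cyclin and replication genes of the gene-level table; points are estimates and bars their SE. All 25 points lie above 0, from 0.21 to 0.65. The genes shown had been selected for differing among TadA mutant, UCC2003 and GF on these arrays.

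Promoters of 3 of these genes are shown because spindle genes are known to share a pair of promoter elements, the CCAAT box and the cell cycle genes homology region. Each is a window from upstream of the gene start to just inside it, from RefSeq on GRCm38.p6, a newer build than the mm9 of the array files, 5′ to 3′ on the gene's strand. Capitals mark CCAAT or its reverse complement ATTGG, and TTTGAA or its reverse complement TTCAAA; an overlap of both forms is counted for each.
Cenpf, chr1:189688037-189688336, minus strand: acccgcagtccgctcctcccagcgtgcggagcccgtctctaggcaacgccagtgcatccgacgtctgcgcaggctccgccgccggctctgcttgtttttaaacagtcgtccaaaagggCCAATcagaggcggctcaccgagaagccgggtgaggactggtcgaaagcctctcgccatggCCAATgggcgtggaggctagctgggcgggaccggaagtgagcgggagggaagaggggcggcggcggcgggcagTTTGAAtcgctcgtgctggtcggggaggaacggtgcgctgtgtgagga
Ube2c, chr2:164769679-164769978, plus strand: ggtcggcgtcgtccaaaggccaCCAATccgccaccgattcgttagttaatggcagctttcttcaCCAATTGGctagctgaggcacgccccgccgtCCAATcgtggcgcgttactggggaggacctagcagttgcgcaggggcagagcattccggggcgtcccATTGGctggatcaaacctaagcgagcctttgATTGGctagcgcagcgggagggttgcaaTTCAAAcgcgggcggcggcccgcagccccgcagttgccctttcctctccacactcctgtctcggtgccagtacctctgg
Ckap2, chr8:22185770-22186069, minus strand: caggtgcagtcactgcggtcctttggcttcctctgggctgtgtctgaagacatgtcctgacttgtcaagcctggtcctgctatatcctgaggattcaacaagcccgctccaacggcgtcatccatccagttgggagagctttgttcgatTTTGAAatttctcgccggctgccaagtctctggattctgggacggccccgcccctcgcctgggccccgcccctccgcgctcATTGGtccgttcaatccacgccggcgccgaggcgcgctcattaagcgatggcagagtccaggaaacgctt

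The Cenpf window held 2 CCAAT boxes and 1 homology region, the Ube2c window 6 and 1, and the Ckap2 window 1 and 1. Of the 21 spindle and kinetochore genes, 18 had a window, and 16 of the 18 held a CCAAT box, against 41.1% of the 27025 genes with a window. The homology region was in 17 of the 18, against 20.2% of all genes. A match of letters is a description of the window and not a measured binding site.

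Enteroendocrine genes had mostly higher values in TadA mutant in the gene-level table but not among the clusters. Of 7 such genes in the gene-level table, 6 were higher and 1 lower, with a median of 0.42 log2 units, against 55.7% higher over the table. None was called by limma. Of the 7 genes, 4 higher and 1 lower had an unadjusted p under 0.05, against 23.7% and 16.3% of the table. Of the 7 enteroendocrine clusters, 4 were higher with a median of 0.01, and their means overlapped between TadA mutant (6.58 to 6.82) and UCC2003 (6.50 to 6.71). Insl5, a peptide hormone of colonic L cells, read 10.04, 10.15, 9.58 and 10.01 in TadA mutant, against 9.32, 9.35, 8.88 and 9.20 in UCC2003. All TadA mutant values lay above all UCC2003 values, and the difference was 0.75 ± 0.14 (SE, adjusted p = 0.253 by limma). Gcg, the precursor of glucagon-like peptides, read 9.55, 9.52, 9.06 and 9.46 in TadA mutant, against 8.94, 8.68, 8.72 and 9.02 in UCC2003. Neurod2, a transcription factor, differed by 0.43. Ffar4, a receptor for long-chain fatty acids, went the other way at -0.48, with 6.29 to 6.42 in TadA mutant and 6.65 to 7.02 in UCC2003.

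Pyy, the appetite-reducing hormone peptide YY, was measured in both tables. Its cluster read 11.37, 11.75, 11.44 and 11.63 in TadA mutant, against 11.09, 11.28, 10.95 and 11.16 in UCC2003, a difference of 0.43 ± 0.09 (SE, adjusted p = 0.874 by limma). Ppy, the pancreatic polypeptide gene beside Pyy on chromosome 11, read 8.80, 9.12, 8.26 and 8.79 in TadA mutant, against 8.06, 8.03, 7.42 and 8.07 in UCC2003. Neither pair of groups overlapped, and the lowest Ppy value was that of UCC2003 replicate 3, an array with abundant pancreatic transcripts. The Ppy difference of 0.85 was 0.69 without that array, 0.57 without all arrays with abundant pancreatic transcripts and 0.87 with the Cpa1 and Cel level in the fit. The other enteroendocrine clusters lay near 0: Insm1 and Neurod1, differentiation factors, differed by -0.11 and 0.01, Sct, the secretin gene, by -0.08, and Gpr119, a lipid receptor, by 0.20. The mean of the 7 genes of the gene-level table was 8.11 in TadA mutant (8.05 to 8.17), 7.83 in UCC2003 (7.67 to 7.93), 8.14 in GF and 8.14 in CONV. The TadA mutant and UCC2003 columns did not overlap. These 7 genes had been selected for differing among TadA mutant, UCC2003 and GF, so the gap is no independent evidence of a difference.

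Of the 40 genes of the antimicrobial and oxidant list, 4 were in the gene-level table, all of epithelial oxidant defence. These 4 were higher in TadA mutant with an unadjusted p under 0.05, against 23.7% of the table in that direction, and 0 were called by limma. They had been selected for differing among TadA mutant, UCC2003 and GF, so this count was partly fixed by that selection. Nqo1, a quinone reductase induced by oxidants, read 5.90, 6.32, 6.36 and 6.33 in TadA mutant, against 5.40, 5.49, 5.33 and 5.51 in UCC2003. The groups did not overlap, and the difference was 0.80 ± 0.12 (SE, 1.74-fold, adjusted p = 0.0824 by limma). The Nqo1 cluster differed by 0.74 ± 0.18 (SE). The cluster of Gpx2, the glutathione peroxidase of the gut epithelium, read 11.07, 11.34, 11.68 and 11.42 in TadA mutant, against 10.83, 10.66, 10.48 and 11.09 in UCC2003, and the ranges overlapped narrowly. The cluster of Nox1, the superoxide-producing oxidase of the colon, read 6.79, 7.25, 7.38 and 7.51 in TadA mutant, against 6.32, 6.68, 6.12 and 6.95 in UCC2003, also with an overlap. Noxo1, its organiser subunit, and Duox2, a peroxide-producing oxidase, differed by 0.32 and 0.40 in the gene-level table.

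Among the 11 clusters of the antimicrobial and oxidant list, 9 were higher in TadA mutant, against 44.8% of clusters with 1 symbol, but the median was 0.03 and only Nqo1, Gpx2 and Nox1 had an unadjusted p under 0.05. Without the arrays with pancreatic transcripts, 6 of 11 were higher and the median was 0.00. S100a8, a neutrophil calcium-binding protein, differed by -0.63, Hamp, the iron hormone hepcidin, by 0.83, and Pigr, the immunoglobulin transporter, by 0.02. None of these passed the test.

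Xenobiotic metabolism genes were divided in direction. Of the gene-level genes, 6 of 10 were higher and 4 lower in TadA mutant, against 55.7% higher over the table. Among the clusters 5 of 8 were higher and 3 lower, against 44.8% higher among clusters with 1 symbol, and 0 were called by limma in either table. The cluster of Cyp4f14, a monooxygenase of fatty acids and eicosanoids, read 5.88, 5.98, 5.90 and 6.53 in TadA mutant replicates 1 to 4, against 6.91, 6.80, 7.10 and 7.65 in UCC2003 replicates 1 to 4. The difference was -1.05 ± 0.18 (SE, 2.06-fold lower, adjusted p = 0.202 by limma), and the authors' deposited table gave a signed fold of -2.05. In the gene-level table Cyp2c55, a colonic monooxygenase, read 5.50, 5.17, 5.90 and 5.98 in TadA mutant, against 6.50, 6.89, 6.35 and 7.44 in UCC2003. In both genes all TadA mutant values lay below all UCC2003 values. GF averaged 6.36 for the Cyp4f14 cluster and 6.08 for Cyp2c55 in the gene-level table. Gsta1 and Gsta2, near-identical glutathione transferases whose probes may share signal, differed by 0.62 and 0.50, and Ces1f and Ces2e, carboxylesterases, by 0.74 and 0.41 among the clusters.

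All 3 absorptive colonocyte genes and all 3 water and ion transport genes of the gene-level table had lower means in TadA mutant, against 44.3% of the table, with 2 of each list at an unadjusted p under 0.05, against 16.3%. Among the clusters 3 of 5 absorptive genes were higher with a median of 0.00, and 1 of 3 transport genes was higher with a median of -0.03. Guca2a, the precursor of guanylin, which drives fluid secretion, read 12.12, 11.68, 12.18 and 12.01 in TadA mutant, against 12.34, 12.35, 12.38 and 12.53 in UCC2003. Slc9a3, a sodium-proton exchanger of the brush border, read 7.19, 6.50, 7.41 and 7.83 in TadA mutant, against 7.98, 7.82, 8.11 and 8.75 in UCC2003, with a narrow overlap. Scnn1a, a subunit of the epithelial sodium channel, differed by -0.32 ± 0.09 (SE). In the lipid and sterol list, Pdk4, a kinase that limits glucose oxidation, differed by -0.47 ± 0.14 (SE), while Scd2, a fatty acid desaturase, differed by 0.33. Guca2a, Slc9a3, Scnn1a and Pdk4 had an unadjusted p under 0.05 and an adjusted p of 0.736 or more by limma. Among the clusters Krt20, a keratin of differentiated colonocytes, differed by -0.16, Aqp4, a water channel, by 0.03 and Hsd11b2, an enzyme that inactivates glucocorticoids, by 0.12. Tight junction clusters, all of the claudin family, were lower in 6 of 7 cases, against 55.2% of clusters with 1 symbol. Their median of -0.05 ran from -0.108 without TadA mutant replicate 2 to -0.001 without UCC2003 replicate 4, with -0.086 and -0.074 without UCC2003 replicates 1 and 2. It was -0.153 without the arrays with abundant pancreatic transcripts. Cldn1 had the smallest unadjusted p of these clusters, at 0.167.

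Antigen presentation genes were higher in TadA mutant in 8 of 8 cases in the gene-level table, with a median of 0.24, against 55.7% higher over the table. At an unadjusted p under 0.05 there were 3 of 8, against 23.7% of the table in that direction, and 0 were called by limma. H2-DMb1, which loads peptide onto class II molecules, read 8.58, 9.76, 9.27 and 9.37 in TadA mutant, against 8.69, 8.81, 8.60 and 8.64 in UCC2003, so 1 TadA mutant column lay below the UCC2003 columns. Nlrc5, an activator of class I genes, differed by 0.37 and H2-Q1, a class I gene, by 0.28. The mean of the 8 genes was 8.01 in TadA mutant (7.78 to 8.22), 7.73 in UCC2003 (7.61 to 7.86), 7.32 in GF and 8.50 in CONV, and the TadA mutant and UCC2003 ranges overlapped. B cell genes, which share class II expression, averaged 5.85 in TadA mutant (5.36 to 6.18) and 5.90 in UCC2003 (5.55 to 6.17), with 2 of 8 higher, against 55.7% of the table.

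Smooth muscle genes were lower in TadA mutant in 8 of 9 cases in the gene-level table, with a median of -0.10, against 44.3% lower over the table, and 0 were called by limma. The median was 0.039 without TadA mutant column 2, -0.051 without UCC2003 column 2, -0.151 without UCC2003 column 1 and -0.188 without TadA mutant column 3, so its direction rested on 1 column. Among the 4 smooth muscle clusters 2 were higher, with a median of -0.02. Myl9, a myosin light chain, read 9.92, 9.62, 9.74 and 10.02 in TadA mutant, against 10.55, 9.94, 10.52 and 10.73 in UCC2003. Hspb6, a small heat shock protein of muscle, read 7.75, 7.74, 7.78 and 7.64 in TadA mutant, against 8.56, 8.22, 8.34 and 7.91 in UCC2003. Des and Myh11, structural genes of muscle, differed by -0.04 and -0.20. The mean of the 9 genes ran from 8.23 to 8.77 in TadA mutant and from 8.69 to 8.85 in UCC2003. B4galnt2, cluster 6841363 and Retnlb were still called when the smooth muscle mean entered the fit.

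**Figure D4:**
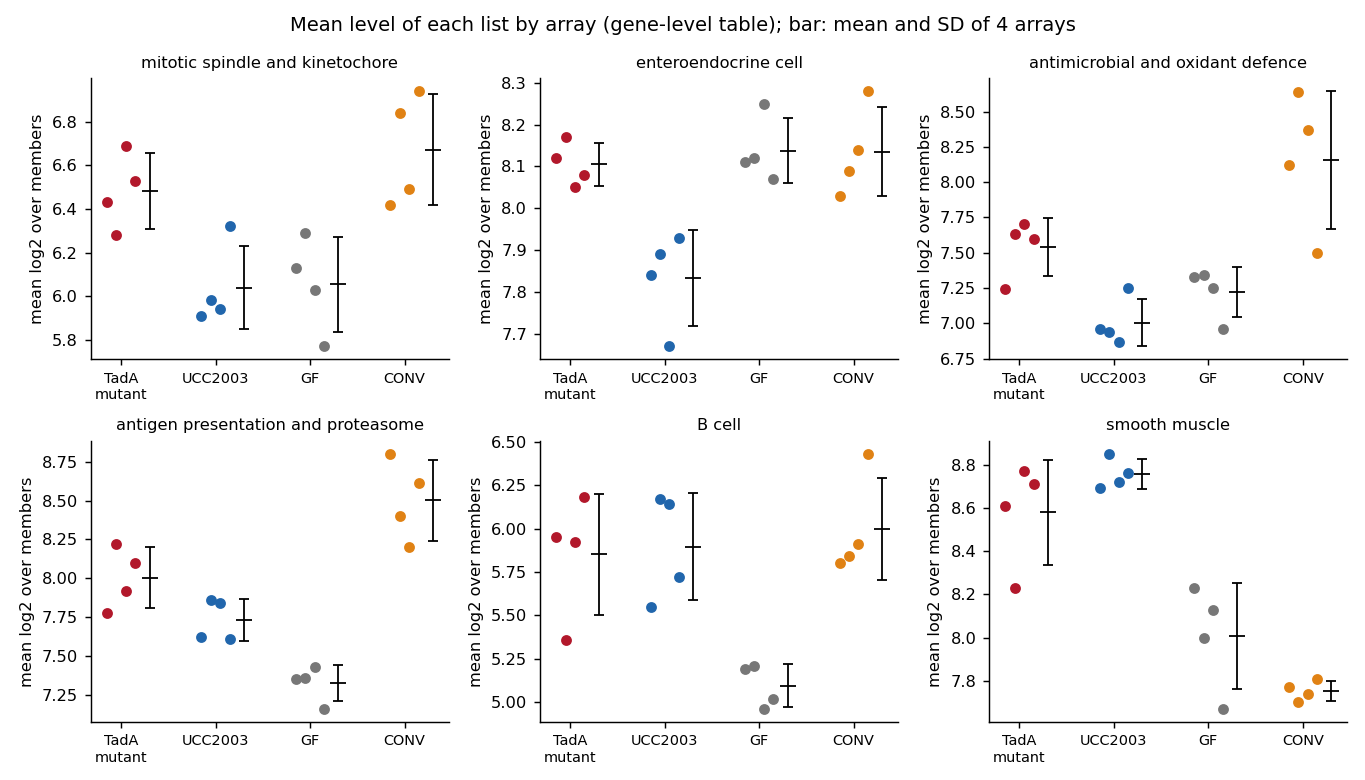
Mean log2 level over the genes of 6 lists in the gene-level table (y axis) by group (TadA mutant, UCC2003, GF, CONV); each point is 1 array and the bar is the mean and SD of 4 arrays. The enteroendocrine means of TadA mutant (8.05 to 8.17) lie above those of UCC2003 (7.67 to 7.93), while the spindle and kinetochore, antigen presentation, B cell and smooth muscle means of the 2 groups overlap. All genes shown had been selected for differing among TadA mutant, UCC2003 and GF, so a gap is no independent evidence of a difference.

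Other named genes did not pass the adjusted threshold. Nlrp1b, an inflammasome sensor, read 6.71, 6.28, 6.51 and 6.68 in TadA mutant, against 5.01, 5.36, 5.75 and 5.02 in UCC2003, a difference of 1.26 ± 0.20 (SE, adjusted p = 0.106 by limma). Pak3, a kinase of the cytoskeleton, read 3.10, 2.84, 2.91 and 2.70 in TadA mutant, against 3.66, 4.36, 3.83 and 3.87 in UCC2003, near the dim end of the scale (adjusted p = 0.0691 by limma). Ifit3, an interferon-induced gene, read 4.06, 3.50, 4.14 and 3.86 in TadA mutant, against 5.47, 6.02, 5.64 and 7.03 in UCC2003. Its difference of -2.15 ± 0.49 (SE, adjusted p = 0.454 by limma) was not shared by the other interferon genes of that table, as Gbp4, Stat2 and Parp14 differed by -0.21, -0.06 and -0.02. Glrx2, a glutaredoxin, differed by -0.48, Creb3l3, a transcription factor of lipid metabolism, by 0.47, and Snhg16, a noncoding RNA, by -0.59. Among the clusters, Id1, an inhibitor of differentiation factors, and Zfp36l1, an RNA-binding protein that shortens the life of messages, differed by -0.40 and -0.35, with no overlap between groups. Hoxb5, a homeobox factor, differed by -0.36 and Them6, a thioesterase-like protein, by 0.78.

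**Figure D5:**
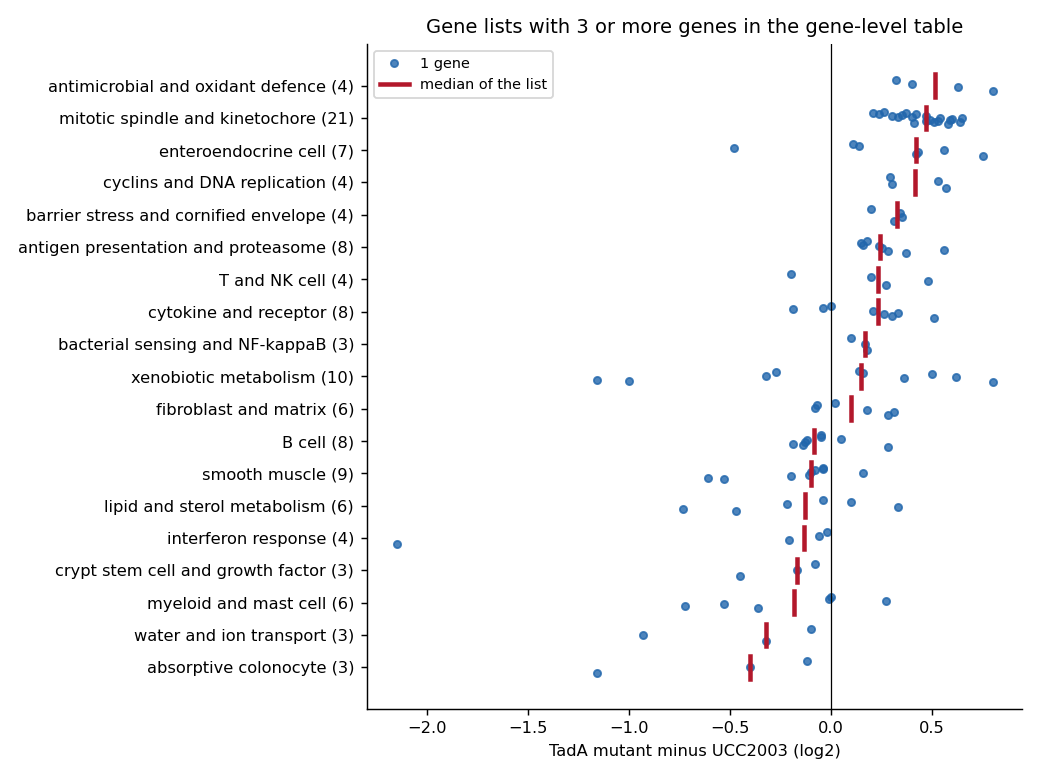
Difference between TadA mutant and UCC2003 (x axis, log2) of each gene of the lists with 3 or more genes in the gene-level table; blue points are genes, red bars list medians, and the number of genes stands in brackets. Medians run from -0.40 for absorptive colonocyte genes to 0.52 for antimicrobial and oxidant genes, and all 21 spindle and kinetochore genes lie above 0. The table holds only genes selected for differing among TadA mutant, UCC2003 and GF on these arrays.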

How the data were processed

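Per the submitters' processing notes, Affymetrix Expression Console 1.1, RMA and Partek were used with the mm9 genome build. The authors deposited log2 intensities per transcript cluster and, in a table of genes that passed their ANOVA, per gene; how probes were combined per gene is not given in the sources used here. Per the file headers, the deposited comparison table gives a signed fold score and an ANOVA p-value with its adjusted p-value.

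Groups came from the treatment labels. A model with 1 coefficient per group was fitted with limma 3.58.1 in R 4.3.3 to all 16 arrays, and to the 12 gene-level columns of TadA mutant, UCC2003 and GF, and tested two-sided. The gene-level table also holds CONV columns, which the planned design had not foreseen. Its columns carry a group but no replicate number. The procedure was tested on simulated data. Same-numbered replicates did not deviate together (correlations -0.305 to 0.159). The main variation within groups followed the Cpa1 and Cel level (absolute correlation 0.95). These correlations therefore cannot decide whether the numbers pair samples. Labels call the samples biological replicates but name no animals, cages or litters.

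Of cluster symbols, 1912 were found in RefSeq (110 under a newer symbol), as were 1595 of the gene-level symbols (95 newer). Members and the 31 gene lists were chosen with earlier results of these data known. Named genes are the called features, the 12 smallest p-values in each direction and table among genes with 1 symbol that is no clone name, and up to 6 members by p-value of lists with at least 3 measured members, given in full only where the unadjusted p-value was under 0.05. Cpa1, Cel and a few fixed genes were added. Other members named, such as Top2a and Pigr, were chosen after their values were seen. Chip signals of near-identical genes may be mixed. The number of arrays limits precision.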

Additional observations from a re-analysis of the deposited data

Results flagged for a closer look

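In 11 of 242 groups of 4 values checked, 1 array or column stood far from the other 3 of its group (Dixon's criterion at the 95% level); chance flags about 5% of groups. In TadA mutant, Cyp4f14 (cluster) had a value of 6.53 against 5.98 for the nearest. In the gene-level table, the TadA mutant column that stood apart read 5.90 for Nqo1 (nearest 6.32), 3.62 for Spaca1 (3.82), 5.40 for Igf2 (5.60) and 4.99 for Ms4a1 (5.41). In UCC2003, the cluster value that stood apart was 3.45 for Olfr31 (nearest 4.40), 3.28 for Olfr610 (4.73) and 7.42 for Ppy (8.03). In the gene-level table the UCC2003 column that stood apart read 5.82 for Creb3l3 (5.56), 6.36 for Cma1 (6.13) and 7.57 for Aldh1a1 (7.92).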

How the results depend on the processing

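The count of 2 called clusters became 1 in the ordinary fit (B4galnt2 lost) and 1 to 3 when any array was left out. It was 0 by limma without the arrays with pancreatic transcripts (1351 at an unadjusted p under 0.05, on fewer arrays) and 0 by the authors' deposited adjusted p-value (618). With the Cpa1 and Cel level in the fit it stayed at 2. The block on replicate number called 3 clusters, adding Cyp4f14 (adjusted p = 0.0258 by limma). Whether these numbers pair samples is not known. The count of 2 genes in the gene-level table became 5 with median centring, 4 with quantile normalisation, 345 when adjusted over the table's genes alone, 0 in the ordinary fit (709 at an unadjusted p under 0.05) and 2 to 8 with any column left out; it was 4 with the CONV columns in the fit, an alternative chosen after seeing the data. The cause of these changes was not tested. Pak3 passed with median centring, Cpa3 without UCC2003 column 4, Nqo1 without TadA mutant column 1, Olfr955 and Vmn2r99 without GF column 2, and Olfr610 without UCC2003 replicate 3. Of 121 named values, 5 changed sign: Tff3 was 0.03 with quantile normalisation. Without the pancreatic arrays, Irgm1 was -0.02, Sprr2b -0.05, Cel 0.79 and Cpa1 1.03. Cpa1 was 0.11 with the Cpa1 and Cel covariate and 0.02 and 0.04 without UCC2003 replicates 1 and 3, with a range of -3.24 to 0.04 over all arrays left out singly. Background signal was not used here, so the depth of dim values is unknown. Not run on the gene-level table were the replicate block, the pancreatic arrays left out and the Cpa1 and Cel covariate, since its columns carry no replicate number, and the 12 columns without CONV, which are its reported fit.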

Other observations

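Immune genes outside the groups above gave small differences. Of 17 cytokine and receptor clusters, 12 were higher in TadA mutant, against 44.8% of clusters with 1 symbol. Their median of 0.10 was 0.00 without the arrays with pancreatic transcripts, 0.209 without UCC2003 replicate 2 and 0.154 without TadA mutant replicate 3. Ccl4, a chemokine, read 5.21, 5.38, 4.93 and 5.15 in TadA mutant, against 4.51, 4.85, 4.97 and 4.32 in UCC2003. Il1rl1, the receptor of an alarmin cytokine, read 4.75 to 4.93 in TadA mutant and 4.40 to 4.71 in UCC2003. In the gene-level table Csf2, a myeloid growth factor, differed by 0.51, Cd3g, a chain of the T cell receptor complex, by 0.48 and Prf1, the cytotoxic pore protein perforin, by 0.27. Cpa3 and Cma1, mast cell proteases, went the other way at -0.72 and -0.53, while the mast cell protease Mcpt1 differed by 0.43 among the clusters. Cpa3 read 4.77, 4.69, 4.58 and 4.85 in TadA mutant, against 5.65, 5.90, 5.63 and 4.60 in UCC2003, so 1 UCC2003 column lay with the TadA mutant columns. None of these genes was called.

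Gasdermin C family genes, which encode pore-forming proteins of the gut epithelium, lie side by side on chromosome 15 and have near-identical copies whose probes may share signal. Gsdmc4 read 11.11, 11.54, 11.32 and 11.23 in TadA mutant, against 10.98, 10.93, 10.75 and 11.13 in UCC2003. Gsdmc and Gsdmc2 differed by 0.31 and 0.34. Cluster 6841363 and Retnlb had the same order of group means, CONV highest, then UCC2003, TadA mutant and GF; whether both measure the same transcript was not tested.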
